A study of Homo sapiens with 12 samples.

Results

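The RNA of heat shock chaperones, mainly those of the cytosol and mitochondria, was examined in HEK293 Flp-In cells. This line derives from human embryonic kidney and carries a recombination site at which transgenes are inserted. The set was chosen by gene name, with earlier results of these data known. It held 44 genes: 2 heat shock factors and the HSP70, HSP110, HSP90, small heat shock protein, mitochondrial chaperonin, J-protein, cochaperone and TRiC families. HSPA1A (chr6:31815543-31817946, hg38, plus strand) and HSPA1B (chr6:31827738-31830254, plus strand) were summed, since their coding sequences differ at 4 of 1926 bases. That left 43 features of the 32010 genes in the count table, and all 43 were among the 19423 genes that passed the filter on low counts. Polyadenylated RNA came from 4 groups of 3 libraries each. The siNT cells were transfected with non-targeting siRNA and the siTAF5 cells with siRNA against TAF5, a subunit of the general transcription factor TFIID, which binds core promoters. In the FL and ΔE8 cells the TAF5 siRNA was followed by an siRNA-resistant transgene, full-length TAF5 (TAF5-FL) or TAF5 without exon 8 (TAF5-ΔE8), induced with doxycycline from Flp-In lines. Induction began 24 h after transfection and lasted 48 h, and the labels list siRNA plus doxycycline for all 12 libraries. The study asked whether exon 8 of TAF5 affects gene expression. Which Flp-In line gave the siNT and siTAF5 cells is not stated, so transgene and cell line cannot be told apart where FL or ΔE8 is compared with them. The same holds between FL and ΔE8 if their lines differ in more than the transgene. Whether replicates were separate cultures is not stated either, so p-values measure the spread between these libraries, which may be technical.

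HSP70 proteins hold unfolded protein chains in a cycle driven by ATP. J-proteins deliver clients and start ATP hydrolysis, and HSP110 and BAG proteins exchange the nucleotide. HSP90 receives partly folded clients such as kinases and steroid receptors from HSP70 and matures them with its own cochaperones. The chaperonins are barrels in which a protein folds alone: HSP60 with its lid HSP10 in mitochondria, and the TRiC ring, which folds actin and tubulin, in the cytosol. On heat or other proteotoxic stress, trimers of heat shock factor 1 bind heat shock elements in the promoters of many of these genes, which many growing cells also transcribe without stress.

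The chaperone genes did not move as one block. RNA from HSPA1A and HSPA1B, the main stress-inducible HSP70 genes, was 1.43-fold higher in siTAF5 than in siNT, 1.45-fold lower in FL than in siTAF5, and 1.45-fold higher in ΔE8 than in FL. HSPD1, which encodes HSP60, changed the other way: 1.22-fold lower in siTAF5 than in siNT, 1.27-fold higher in FL than in siTAF5 and 1.23-fold lower in ΔE8 than in FL. The constitutive HSP70 gene HSPA8 and its J-protein partner DNAJA1 were higher in FL and in ΔE8 than in siTAF5, by 1.29-fold and 1.29-fold for HSPA8 and by 1.35-fold and 1.36-fold for DNAJA1.

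Promoter sequence is shown first, because TAF5 belongs to the complex that recognises core promoters and heat shock factors act through promoter elements. RefSeq promoters of GRCh38.p14, from 250 bases before to 50 bases after each transcription start, were found for 40 of the 44 genes. Those of CCT6A, FKBP4, HSF1 and HSPA14 were not in the table. The heat shock element was searched as TTC, GAA and TTC in a row with 2 free bases between neighbours, and as its reverse complement GAA, TTC and GAA spaced alike. It was found in 7 of the 40 genes (17.5%), against 0.608% of the 27303 genes with a promoter in the table. The 7 genes were HSPA8, HSP90AA1, HSP90AB1, CHORDC1, DNAJA1, DNAJB6 and HSPD1. TATAAA or its reverse complement TTTATA also occurred in 7 of the 40 genes (17.5%, against 14% of all genes). TATAAA on the gene's own strand, 40 to 20 bases before the start, occurred in HSPA1A and HSPA1B, which are 2 of the 40 genes (5%, against 2.92% of all genes). The searches are exact, so a gene without a match can still carry a degenerate element, and a match is a description of the letters only. The windows below run 5′ to 3′ along the gene's own strand, with the motif in capitals: TATAAA in the first pair, where the spacing to the start can be compared between near-identical genes, and the heat shock element in the others.
HSPA1A chr6:31815501-31815530, plus strand: tccgtgacgactTATAAAagcccaggggca
HSPA1B chr6:31827697-31827726, plus strand: tccacgacgactTATAAAagccgaggggcg
HSPA8 chr11:123062345-123062374, minus strand: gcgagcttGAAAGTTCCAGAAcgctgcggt
HSPA8 chr11:123062170-123062199, minus strand: cgggccccTTCTGGAAGGTTCtaagatagg
HSP90AA1 chr14:102087111-102087140, minus strand: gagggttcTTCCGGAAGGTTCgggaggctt
HSP90AB1 chr6:44247771-44247850, plus strand: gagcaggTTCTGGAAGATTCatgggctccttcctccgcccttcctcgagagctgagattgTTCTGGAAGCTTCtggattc
CHORDC1 chr11:90223083-90223112, minus strand: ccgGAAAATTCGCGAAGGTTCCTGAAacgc
DNAJB6 chr7:157336865-157336894, plus strand: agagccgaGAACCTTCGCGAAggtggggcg
HSPD1 chr2:197500061-197500090, minus strand: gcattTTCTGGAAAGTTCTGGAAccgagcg
The TATAAA of HSPA1A began 30 bases before the start and that of HSPA1B 29 bases before it. HSPA8 held a heat shock element at each of 2 places, 230 and 55 bases before its start, and HSP90AB1 also held 2, at 165 and 112 bases. CHORDC1 had 3 overlapping matches that began 60, 55 and 50 bases before the start, read alternately on either strand. The HSPD1 matches, 245 and 240 bases before its start, also overlapped, and they lie in the 538 bases between that start and the divergent start of HSPE1. RefSeq lists a second HSPD1 start at 197500274, closer to HSPE1, and the matches lie downstream of it. Further upstream starts were also listed for HSP90AA1 and HSP90AB1. The windows of HSPA1A, HSP90AA1, CHORDC1 and HSPD1 and the second of HSPA8 lie wholly within exons of GENCODE release 29, so these matches fall inside annotated transcripts. DNAJA1 had a match that began 4 bases after its start and is not printed.

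**Figure D1:**
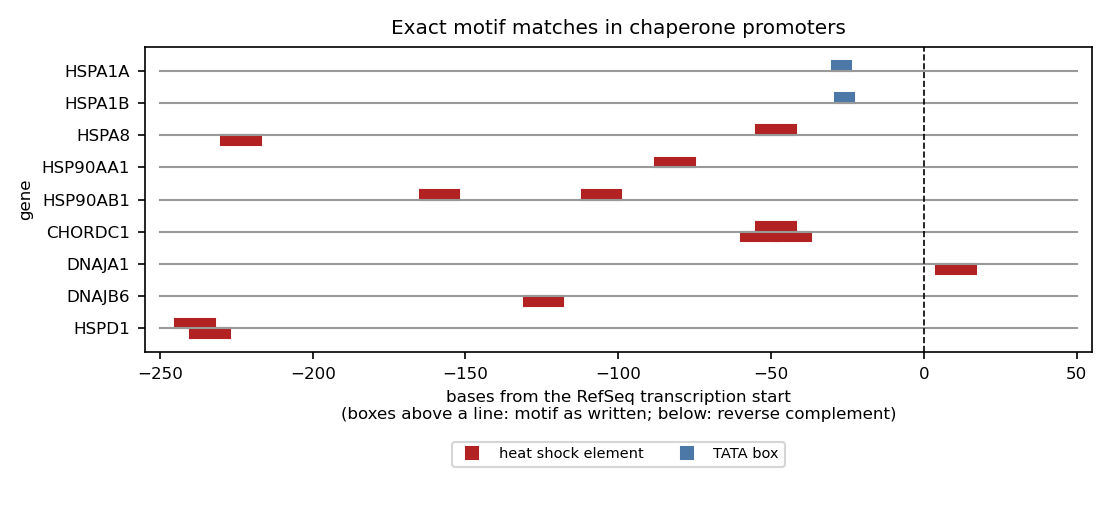
Positions of exact motif matches in the promoters of 9 chaperone genes, in bases from the RefSeq transcription start (dashed line), with heat shock elements in red and the TATA box in blue. Boxes above a gene's line match the motif as written and boxes below it match the reverse complement. Only exact matches are drawn, so a gene without a red box can still carry a degenerate heat shock element. The 2 HSPA1 genes carry TATAAA at 30 and 29 bases before the start, and the heat shock elements of the 7 other genes lie between 245 bases before and 4 bases after it.

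Library totals ran from 41.8 to 62.5 M estimated reads. TAF5 followed the labels: normalised read counts (CPM, reads scaled to a library of 1 M) were 39.2, 40.5 and 40.2 in siNT, 6.13, 7.35 and 6.68 in siTAF5, with 103, 106 and 107 in FL and 87.6, 87.5 and 88.9 in ΔE8. The gene count includes the transgene and does not separate the isoforms. FL cells thus had 2.63-fold and ΔE8 cells 2.20-fold the TAF5 RNA of siNT cells, and ΔE8 cells had 1.20-fold less than FL cells (edgeR adjusted p = 2.12e-06). All 9 genes listed as associated with HEK293 cells were detected, with summed levels of 1864 to 1934 CPM in siNT, 2041 to 2133 in siTAF5, 1900 to 1961 in FL and 2184 to 2253 in ΔE8. VIM carried the higher sums, with means of 1093 CPM in siNT, 1372 in siTAF5, 1188 in FL and 1532 in ΔE8, and each of the other 8 had a lower mean in siTAF5 than in siNT (NEFL 364 to 321, KRT8 253 to 221). Of the fibroblast, blood and endothelial markers, 4 of 6, 5 of 6 and 4 of 4 stayed under 1 CPM in every library. Summed fibroblast markers, nearly all COL1A1 and COL3A1, were 17.1 to 17.5 CPM in siNT, 10.5 to 11.3 in siTAF5, 8.77 to 10.1 in FL and 8.32 to 8.82 in ΔE8. Summed blood markers, nearly all HBA1, were 9.257 to 10.98 CPM in siNT, 6.211 to 7.106 in siTAF5, 9.417 to 10.35 in FL and 6.384 to 7.785 in ΔE8. The part of these shifts in the chaperone values was not tested. In bulk RNA, fewer cells of a type and less RNA per cell cannot be told apart.

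Taken as a whole, the 43 chaperone features supplied 1.87 ± 0.026% of the counts in siNT (SD, n = 3), 2.02 ± 0.011% in siTAF5, 2.10 ± 0.044% in FL and 2.21 ± 0.030% in ΔE8. The lowest library held 1.84% and the highest 2.23%. A gene is called here when its edgeR quasi-likelihood test, adjusted by Benjamini-Hochberg over all 19423 genes, gave p under 0.05, with no minimum fold. About as many genes were called higher as lower across the whole table, and the shares of all genes are given beside the counts. All genes were not matched to the chaperones for level of expression, and the part of level in the shares was not tested. The members and families were chosen with earlier results of these data known, so the shares are descriptions only.

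In siTAF5 against siNT, 10 chaperones were higher (23.3%, against 24.7% of all genes) and 13 lower (30.2%, against 25%), which leaves 20 not called. That share, 53.5%, was close to the 49.7% of all genes called in either direction. The median log2 change was −0.02 for the chaperones and 0.00 for all genes, and the 2 groups of libraries had no overlap for 27 of the 43 (62.8%, against 57.3% of all genes). Scaled by library totals alone, the split was 14 higher and 11 lower, and that of all genes was 5662 higher and 4140 lower. In FL and in ΔE8 against siTAF5 the chaperone split was uneven. In FL against siTAF5, 31 of the 43 were higher (72.1%, against 24.4%), 5 lower (11.6%, against 24.4%) and 37 had no overlap (86%, against 56.3%), with 48.8% of all genes called in either direction. The median log2 change was 0.20 for the chaperones and −0.01 for all genes. In ΔE8 against siTAF5, 28 were higher (65.1%, against 20%), 2 lower (4.65%, against 20.6%) and 36 had no overlap (83.7%, against 49.9%), with 40.6% of all genes called either way. Their median was 0.13, against −0.01. Scaled by library totals alone, 3748 of all genes were higher and 5787 lower in FL than in siTAF5, in place of 4744 and 4732. The chaperones were then 31 higher and 6 lower. FL and ΔE8 are compared with the same siTAF5 libraries, so these results are not independent.

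Between the transgenes, in ΔE8 against FL, 9 chaperones were higher (20.9%, against 17.3% of all genes) and 18 lower (41.9%, against 19.7%). The median log2 change was −0.06, against −0.01 for all genes, of which 37% were called in either direction, and 29 of the 43 had no overlap (67.4%, against 45.7%). Against siNT, FL had 31 higher (72.1%, against 27.8%), 4 lower (9.3%, against 26.8%) and 34 without overlap (79.1%, against 59.7%), with 54.6% of all genes called either way and a chaperone median of 0.19. The 31 fell to between 26 and 29 when any 1 library was left out. ΔE8 had 29 higher than siNT (67.4%, against 30.8%), 9 lower (20.9%, against 31.4%) and 37 without overlap (86%, against 65.7%), with 62.3% of all genes called either way and a chaperone median of 0.14. These comparisons again share the siNT libraries. Most changes were small: past 1.5-fold lay 1 of the 43 in siTAF5 against siNT, 1 in FL against siTAF5, 1 in ΔE8 against siTAF5, 0 in ΔE8 against FL, 4 in FL against siNT and 4 in ΔE8 against siNT. A call was not required for these counts. The 1 in ΔE8 against siTAF5 was DNAJA4, under 1 CPM in every library and not called (edgeR adjusted p = 0.0688). DNAJA4 was also among the 4 in FL against siNT and the 4 in ΔE8 against siNT.

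**Figure D2:**
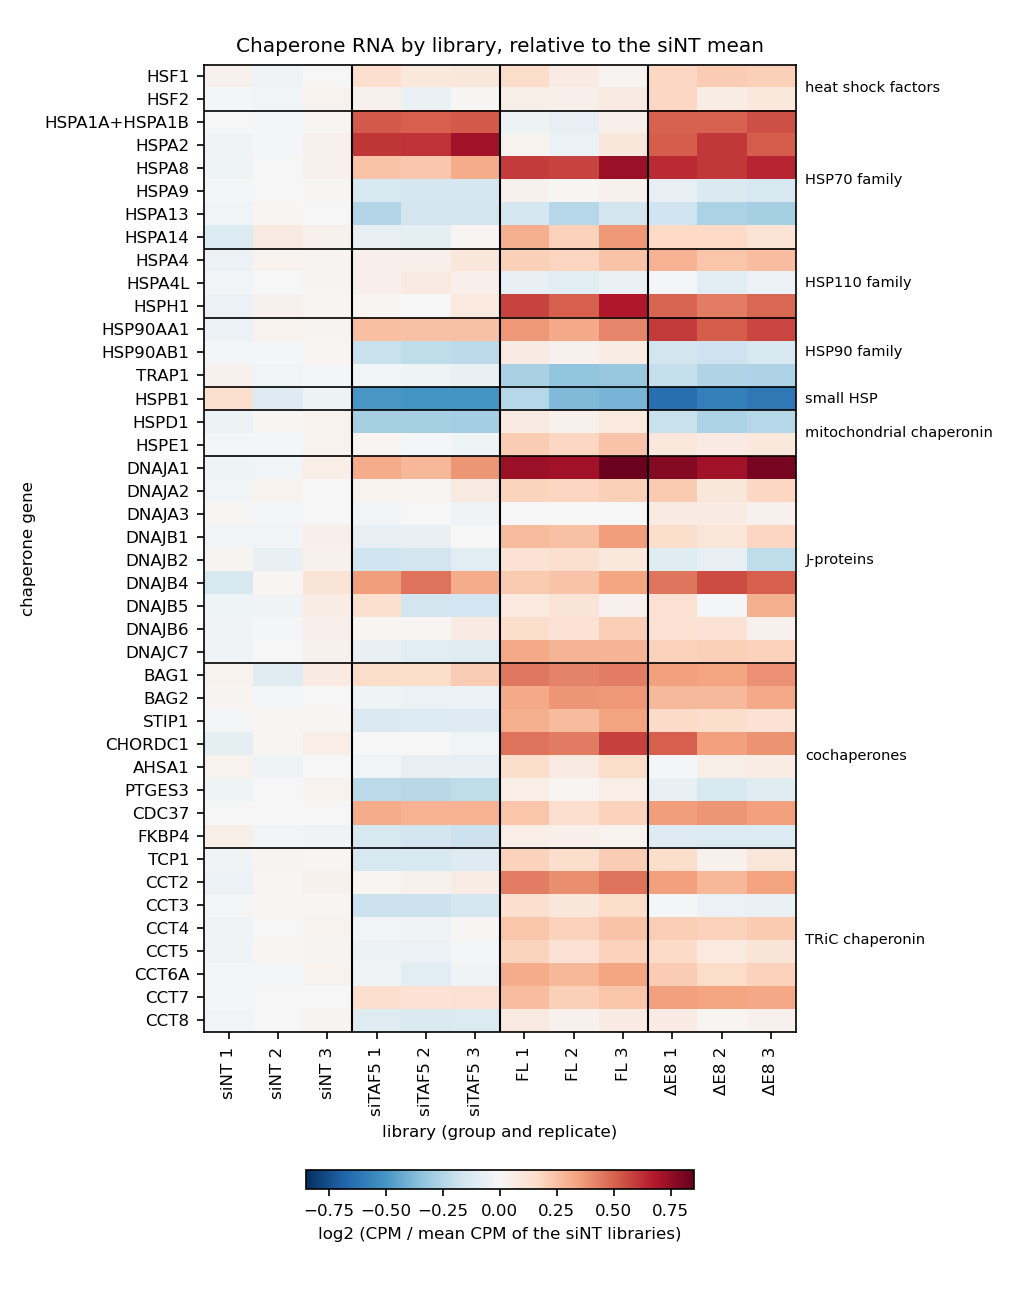
Level of each chaperone in each of the 12 libraries as log2 of its CPM over the mean CPM of the 3 siNT libraries, ordered by family, with red above and blue below the siNT mean. DNAJA4, under 1 CPM in every library, is left out. HSPA1A+HSPA1B and HSPA2 are red in siTAF5 and ΔE8 and near white in FL, whereas HSPA8, HSPH1, DNAJA1 and CHORDC1 are red in all 6 FL and ΔE8 libraries.

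Of the heat shock factors, HSF1 is the master activator of the stress response and HSF2 a related factor that can form trimers with it. HSF1 levels were 77.5, 74.1 and 75.4 CPM in siNT, 83.7, 80.4 and 80.9 in siTAF5, and with a transgene 84.5, 79.4 and 77.04 in FL and 85.5, 87.8 and 86.96 in ΔE8. The ΔE8 libraries were the highest and the siNT libraries lay below all siTAF5 and ΔE8 libraries, while the FL libraries overlapped both siNT and siTAF5. HSF1 was 1.08-fold higher in siTAF5 than in siNT (log2 0.11 ± 0.032 SE, edgeR adjusted p = 0.00741) and 1.08-fold higher in ΔE8 than in FL (edgeR adjusted p = 0.0117). Each of these 2 small changes lost its call when 1 library was left out: siTAF5 replicate 1 for the first (adjusted p = 0.0878) and FL replicate 3 for the second (adjusted p = 0.079). The largest HSF1 change was in ΔE8, 1.15-fold above siNT (edgeR adjusted p = 1.87e-05). HSF1 was also called 1.06-fold higher in FL than in siNT and in ΔE8 than in siTAF5 (edgeR adjusted p = 0.0254 and 0.0337). The FL call against siNT was lost in most other settings. HSF2 levels were 57.7, 57.3 and 59.5 CPM in siNT, 59.6, 55.9 and 58.5 in siTAF5, against 60.3, 60.01 and 61.2 in FL and 65.6, 60.6 and 61.9 in ΔE8. HSF2 was called in ΔE8, 1.08-fold above siNT and 1.08-fold above siTAF5 (edgeR adjusted p = 0.00712 and 0.00944), and its difference from FL was not called (adjusted p = 0.234). The call against siNT was lost without ΔE8 replicate 1 and with upper-quartile scaling (highest adjusted p = 0.0794).

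HSPA1A and HSPA1B encode the inducible cytosolic HSP70. Their summed level was 2529, 2502 and 2546 CPM in siNT and 3626, 3598 and 3628 in siTAF5. With a transgene it was 2451, 2409 and 2608 CPM in FL and 3575, 3569 and 3697 in ΔE8. Every siTAF5 and ΔE8 library exceeded every siNT and FL library, and the siTAF5 and ΔE8 ranges overlapped each other, as did those of siNT and FL. The log2 change was 0.52 ± 0.024 (SE) in siTAF5 against siNT, −0.54 ± 0.024 in FL against siTAF5 and 0.54 ± 0.024 in ΔE8 against FL, with edgeR adjusted p = 1.46e-12, 9.85e-13 and 3.31e-12. Neither ΔE8 against siTAF5 (log2 −0.00 ± 0.024, adjusted p = 0.966) nor FL against siNT (log2 −0.02 ± 0.024, adjusted p = 0.487) was called. Of the summed reads, 0.495% to 0.797% per library were assigned to HSPA1A and the rest to HSPA1B, so the split between the near-identical copies, 99.8% alike in coding sequence, is uncertain.

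HSPA2, a second HSP70 gene best known from spermatogenesis, showed the same order at a low level: 7.23, 7.34 and 7.59 CPM in siNT, 11.2, 11.3 and 12.1 in siTAF5, with 7.55, 7.14 and 7.91 in FL and 10.6, 11.2 and 10.6 in ΔE8. All siTAF5 and ΔE8 libraries lay above all siNT and FL libraries. It was 1.56-fold higher in siTAF5 than in siNT, 1.53-fold lower in FL than in siTAF5 and 1.43-fold higher in ΔE8 than in FL (edgeR adjusted p = 1.94e-08, 4.79e-08 and 1.31e-06). An antisense gene, HSPA2-AS1, overlaps HSPA2, and how the counting treated strand is not known from the sources used here. HSPA8, the constitutive HSP70 that also uncoats clathrin, was higher in siTAF5 than in siNT and higher again with either transgene: 928, 948 and 978 CPM in siNT, 1125, 1117 and 1184 in siTAF5, and with a transgene 1437, 1417 and 1581 in FL and 1477, 1440 and 1493 in ΔE8. The siNT, siTAF5 and transgene libraries did not overlap, and FL and ΔE8 overlapped each other. HSPA8 was 1.55-fold higher in FL and 1.55-fold higher in ΔE8 than in siNT (edgeR adjusted p = 1.13e-11 and 3.14e-12), and ΔE8 against FL was not called (log2 −0.01 ± 0.033, adjusted p = 0.885).

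The remaining HSP70 genes changed less. HSPA9, the mitochondrial HSP70 that pulls proteins through the inner membrane, had means of 664 ± 5.63 CPM in siNT (SD, n = 3) and 602 ± 2.91 in siTAF5, and of 677 ± 7.99 in FL and 615 ± 15.4 in ΔE8. It was lower in siTAF5 than in siNT and lower in ΔE8 than in FL, by 1.10-fold and 1.10-fold (edgeR adjusted p = 1.35e-05 and 3.61e-05), so its order was the reverse of HSPA1A and HSPA1B. HSPA13, a microsomal HSP70 with a short substrate-binding part, was lower in siTAF5, FL and ΔE8 than in siNT, by 1.14-fold, 1.13-fold and 1.18-fold (edgeR adjusted p = 0.000189, 0.00025 and 6.57e-06), with no call among those 3. HSPA14, a ribosome-associated member, was 1.26-fold higher in FL and 1.15-fold higher in ΔE8 than in siTAF5 (edgeR adjusted p = 7.58e-06 and 0.00241).

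**Figure D3:**
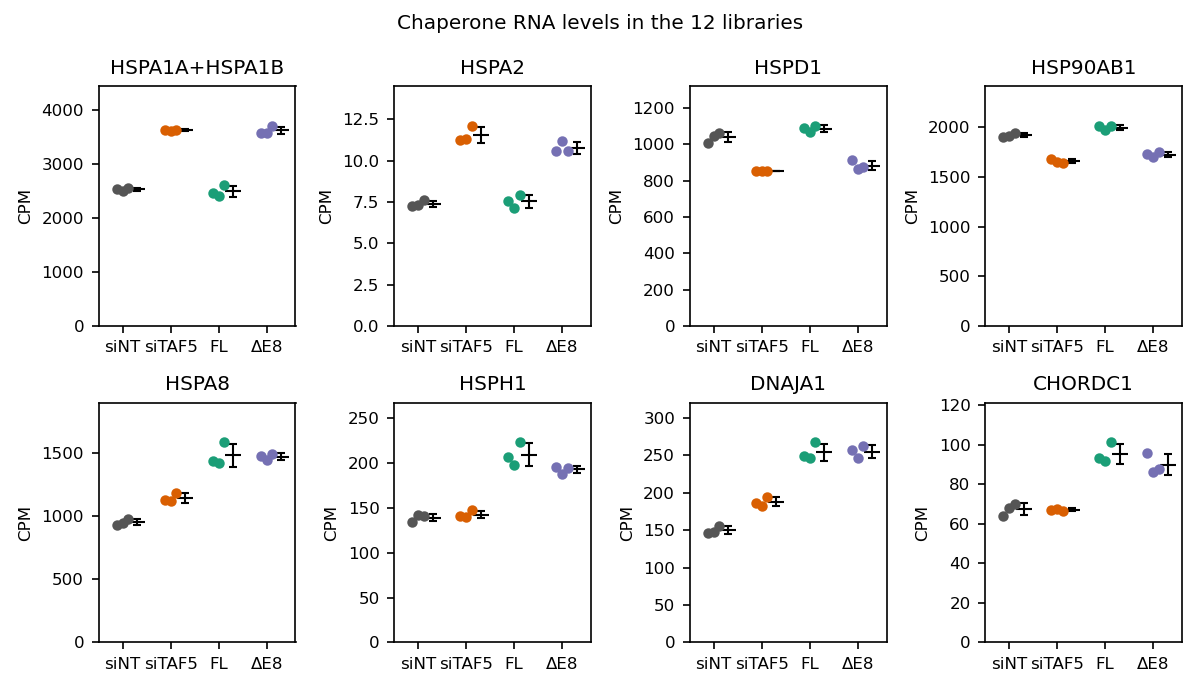
CPM of 8 chaperones in the 12 libraries, with each point a library and each bar the mean ± SD of 3 libraries, on axes that start at 0. In the upper row FL lies near siNT and ΔE8 near siTAF5, upward for HSPA1A+HSPA1B and HSPA2 and downward for HSPD1 and HSP90AB1, and in the lower row both FL and ΔE8 lie above siNT and siTAF5.

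The HSP110 proteins act as nucleotide exchange factors for HSP70. HSPH1 had 134, 142 and 140.5 CPM in siNT, 141, 139.5 and 147 in siTAF5, against 207, 198 and 223 in FL and 196, 188 and 195 in ΔE8. The siNT and siTAF5 libraries overlapped and all 6 transgene libraries lay above them. HSPH1 was 1.47-fold higher in FL and 1.35-fold higher in ΔE8 than in siTAF5 (edgeR adjusted p = 1.72e-10 and 2.11e-08). ΔE8 was 1.08-fold below FL (adjusted p = 0.013), a call lost without FL replicate 3 and without ΔE8 replicate 2. HSPA4, the ubiquitous member, was 1.11-fold and 1.15-fold higher in FL and ΔE8 than in siTAF5 (edgeR adjusted p = 7.9e-05 and 4.35e-06). HSPA4L, its close relative, had 109.5, 112 and 114 CPM in siNT, 115, 118 and 115 in siTAF5, with 106, 105 and 107 in FL and 110.5, 105 and 108 in ΔE8. Here the siTAF5 libraries were the highest, and HSPA4L was 1.09-fold lower in FL and 1.07-fold lower in ΔE8 than in siTAF5 (edgeR adjusted p = 0.00043 and 0.00326).

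The cytosolic HSP90 paralogs moved apart. HSP90AA1, the stress-inducible form, had 2520, 2669 and 2651 CPM in siNT, 3114, 3108 and 3112 in siTAF5, and with a transgene 3378, 3268 and 3481 in FL and 3955, 3741 and 3876 in ΔE8. The 4 groups did not overlap and rose in that order. HSP90AA1 was 1.19-fold higher in siTAF5 than in siNT, 1.08-fold higher in FL than in siTAF5 and 1.14-fold higher in ΔE8 than in FL (edgeR adjusted p = 8.37e-08, 0.00065 and 5.47e-06). HSP90AB1, the constitutive form, had 1905, 1911 and 1946 CPM in siNT, 1684, 1656 and 1643 in siTAF5, against 2014, 1972 and 2010 in FL and 1727, 1703 and 1750 in ΔE8. Every siTAF5 and ΔE8 library lay below every siNT and FL library. HSP90AB1 was 1.16-fold lower in siTAF5 than in siNT, 1.20-fold higher in FL than in siTAF5 and 1.16-fold lower in ΔE8 than in FL (edgeR adjusted p = 1.99e-08, 5.96e-10 and 4.45e-08). Both paralogs carry the heat shock element in the windows printed above.

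TRAP1, the mitochondrial HSP90, had 504, 482 and 486 CPM in siNT, 483, 479 and 469.5 in siTAF5, with 405, 388 and 392 in FL and 426, 411 and 408 in ΔE8. All transgene libraries lay below all siNT and siTAF5 libraries, which overlapped. TRAP1 was 1.21-fold lower in FL and 1.15-fold lower in ΔE8 than in siTAF5 (edgeR adjusted p = 2.25e-08 and 2.78e-06), and ΔE8 was 1.05-fold above FL (adjusted p = 0.0325), a call lost without FL replicate 2, FL replicate 3 or ΔE8 replicate 1. HSPB1, the small heat shock protein HSP27 that holds unfolding proteins without ATP, had 51.3, 43.3 and 45.2 CPM in siNT, 33.0, 32.7 and 32.7 in siTAF5, and with a transgene 39.4, 35.98 and 35.5 in FL and 29.9, 31.2 and 30.6 in ΔE8. The siNT libraries were the highest and the ΔE8 libraries the lowest, with no overlap among the 4 groups. HSPB1 was 1.42-fold lower in siTAF5 and 1.52-fold lower in ΔE8 than in siNT (edgeR adjusted p = 8.3e-08 and 2.84e-09). FL was 1.13-fold above siTAF5 (adjusted p = 0.00903), lost without FL replicate 1 (adjusted p = 0.0868), and ΔE8 was 1.21-fold below FL (adjusted p = 0.000343).

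The mitochondrial chaperonin is built from HSPD1 (HSP60, chr2:197486584-197516737, minus strand) and HSPE1 (its lid HSP10, chr2:197500140-197503449, plus strand), which share a divergent promoter and whose annotated spans overlap. HSPD1 had 1008, 1047 and 1060 CPM in siNT, 854, 852 and 851 in siTAF5, against 1092, 1066 and 1101 in FL and 912, 862 and 876 in ΔE8. All siTAF5 and ΔE8 libraries were below all siNT and FL libraries. HSPD1 changed by log2 −0.28 ± 0.024 (SE) in siTAF5 against siNT, 0.35 ± 0.024 in FL against siTAF5 and −0.30 ± 0.024 in ΔE8 against FL (edgeR adjusted p = 6.79e-09, 3.41e-10 and 8.41e-09). HSPE1 had 99.7, 100 and 103 CPM in siNT, 102, 99.8 and 98.6 in siTAF5, with 117, 114 and 119.7 in FL and 107, 106 and 108 in ΔE8. Here siNT and siTAF5 overlapped and were not called apart (log2 −0.01 ± 0.026, adjusted p = 0.735). FL was 1.17-fold above siTAF5 and ΔE8 1.09-fold below FL (edgeR adjusted p = 5.58e-07 and 0.000521). The difference in change between these neighbours was not tested.

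Of the 10 J-proteins, 2 were higher and 2 lower in siTAF5 than in siNT (20% each way, near the 24.7% and 25% of all genes). In FL against siTAF5, 6 were higher and 0 lower (all genes 24.4% and 24.4%), and in ΔE8 against siTAF5, 5 were higher and 0 lower (all genes 20% and 20.6%). In ΔE8 against FL, 2 were higher and 3 lower (all genes 17.3% and 19.7%). DNAJA1, a farnesylated partner of HSPA8, had 146, 148 and 156 CPM in siNT, 187, 183 and 195 in siTAF5, and with a transgene 249, 246 and 267 in FL and 257, 246 and 262 in ΔE8. The siNT and siTAF5 groups stood apart from each other and below both transgene groups, which overlapped. DNAJA1 was 1.25-fold higher in siTAF5 than in siNT, and 1.35-fold and 1.36-fold higher in FL and ΔE8 than in siTAF5 (edgeR adjusted p = 1.72e-07, 2.35e-09 and 1.13e-08). Relative to siNT it was 1.69-fold higher in FL and 1.70-fold higher in ΔE8, the largest rises among members above 1 CPM.

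DNAJB4, a J-protein of the DNAJB1 type, had 9.35, 10.4 and 11.1 CPM in siNT, 13.2, 14.2 and 12.8 in siTAF5, against 12.02, 12.1 and 12.97 in FL and 14.1, 15.1 and 14.6 in ΔE8. Each siNT library lay below all others, and FL overlapped siTAF5 but not ΔE8. It was 1.30-fold higher in siTAF5 than in siNT and 1.18-fold higher in ΔE8 than in FL (edgeR adjusted p = 4.01e-05 and 0.00439). DNAJB2, a neuron-enriched J-protein that routes clients to the proteasome, had 16.1, 15.1 and 16.2 CPM in siNT, 14.1, 14.2 and 14.8 in siTAF5, with 17.2, 17.4 and 16.8 in FL and 14.7, 15.1 and 13.6 in ΔE8. Its FL libraries were above all others, and its siTAF5 and ΔE8 libraries were below all siNT libraries. DNAJB2 was 1.20-fold higher in FL than in siTAF5 and 1.18-fold lower in ΔE8 than in FL (edgeR adjusted p = 0.00025 and 0.000716). Its fall in siTAF5 against siNT (adjusted p = 0.0256) was lost with DESeq2, with library totals alone, and without siNT replicate 1 or 3. DNAJB1, the main stress-inducible HSP40, was 1.26-fold higher in FL than in siTAF5 and 1.11-fold lower in ΔE8 than in FL (edgeR adjusted p = 3.32e-08 and 0.000907), and siTAF5 against siNT was not called (log2 −0.05 ± 0.032, adjusted p = 0.261).

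DNAJC7, which moves clients between HSP70 and HSP90, was 1.31-fold higher in FL and 1.22-fold higher in ΔE8 than in siTAF5, and 1.07-fold lower in ΔE8 than in FL (edgeR adjusted p = 1.34e-10, 4.01e-08 and 0.00223). DNAJA2 was 1.11-fold and 1.09-fold higher in FL and ΔE8 than in siTAF5 (edgeR adjusted p = 0.000327 and 0.00204), and DNAJB6, a suppressor of polyglutamine aggregation that carries a heat shock element, was 1.09-fold higher in FL than in siTAF5 (adjusted p = 0.00239). DNAJA3, the mitochondrial J-protein, stayed between 153.9 and 165 CPM in all 12 libraries. Its calls all had ΔE8 higher, and the largest was 1.054-fold, against siTAF5 (edgeR adjusted p = 0.00887). Against siNT the call was lost in 8 of 19 other settings and against FL in 7, among them single libraries left out (siNT replicate 2 or 3 and ΔE8 replicate 2 for both, siTAF5 replicate 1 and ΔE8 replicate 1 for the first, FL replicate 1 or 3 for the second). DNAJB5 had no call in any comparison at 5.88 to 8.12 CPM. DNAJA4 lay under 1 CPM in every library, from 0.31 to 0.944 CPM. It was called higher in FL and ΔE8 than in siNT (edgeR adjusted p = 0.0255 and 0.00448), with log2 0.81 ± 0.29 (SE) and 1.00 ± 0.28, and FL and siNT overlapped. The FL call was lost without siNT replicate 1 or 3 or FL replicate 2 or 3 (adjusted p up to 0.129).

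The cochaperones serve HSP70 and HSP90. Of these 8 genes, 2 were higher and 3 lower in siTAF5 than in siNT (25% and 37.5%, against 24.7% and 25% of all genes), and 7 were higher and 1 lower in FL than in siTAF5 (87.5% and 12.5%, against 24.4% each way). In ΔE8, 6 were higher and 0 lower than in siTAF5 (75% and 0%, against 20% and 20.6%), and 1 was higher and 4 lower than in FL (12.5% and 50%, against 17.3% and 19.7%). STIP1, the adaptor that links HSP70 to HSP90, had 319.6, 326 and 325 CPM in siNT, 297, 299 and 299 in siTAF5, and with a transgene 400, 390.3 and 409 in FL and 362, 358 and 351 in ΔE8. The 4 groups did not overlap, with siTAF5 lowest, then siNT, ΔE8 and FL. STIP1 was 1.08-fold lower in siTAF5 than in siNT, 1.34-fold higher in FL than in siTAF5 and 1.12-fold lower in ΔE8 than in FL (edgeR adjusted p = 0.000225, 1.25e-11 and 1.07e-05). CHORDC1, an HSP90 cochaperone whose promoter holds the overlapping heat shock elements printed above, had 64.1, 68.1 and 70.1 CPM in siNT, 67.2, 67.7 and 66.3 in siTAF5, against 93.04, 91.6 and 101 in FL and 95.97, 85.95 and 87.8 in ΔE8. The siNT and siTAF5 libraries overlapped, and all 6 transgene libraries lay above both. CHORDC1 was 1.42-fold higher in FL and 1.34-fold higher in ΔE8 than in siTAF5 (edgeR adjusted p = 6.33e-09 and 2.08e-07), and ΔE8 against FL was not called (log2 −0.08 ± 0.042, adjusted p = 0.14).

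PTGES3, the p23 cochaperone that stabilises closed HSP90, had 825, 851 and 865 CPM in siNT, 722, 719 and 729 in siTAF5, with 880.2, 858 and 883 in FL and 809.9, 769 and 788 in ΔE8. The siTAF5 libraries were lowest, ΔE8 came next without overlap, and siNT and FL overlapped. PTGES3 was 1.17-fold lower in siTAF5 than in siNT, 1.21-fold higher in FL than in siTAF5 and 1.11-fold lower in ΔE8 than in FL (edgeR adjusted p = 1.03e-07, 8.11e-09 and 4.82e-05). The kinase adaptor CDC37 changed the opposite way, 1.23-fold higher in siTAF5 than in siNT, 1.08-fold lower in FL than in siTAF5 and 1.12-fold higher in ΔE8 than in FL (edgeR adjusted p = 2.97e-09, 0.000767 and 1.4e-05). FKBP4, the steroid receptor immunophilin FKBP52, was 1.11-fold lower in siTAF5 than in siNT and 1.11-fold lower in ΔE8 than in FL (edgeR adjusted p = 9.06e-06 and 1.69e-05). BAG2, which inhibits the ubiquitin ligase CHIP, was 1.31-fold and 1.26-fold higher in FL and ΔE8 than in siTAF5 (edgeR adjusted p = 4.05e-10 and 2.03e-08). BAG1 was 1.13-fold higher in siTAF5 than in siNT and 1.35-fold and 1.28-fold higher in FL and ΔE8 than in siNT (edgeR adjusted p = 0.00126, 2.12e-08 and 1.71e-07). AHSA1, the activator of the HSP90 ATPase, was 1.14-fold higher in FL than in siTAF5 (adjusted p = 1.99e-05).

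TRiC has 8 different subunits in each ring, and all 8 genes were called higher in FL than in siTAF5 and all 8 higher in ΔE8 than in siTAF5, with no overlap of libraries. Of all genes, 24.4% and 20% were called higher in these comparisons, and 56.3% and 49.9% had no overlap. The FL rises ran from 1.07-fold for CCT7 to 1.31-fold for CCT2 (median log2 0.27), and the ΔE8 rises from 1.09-fold for CCT3 to 1.22-fold for CCT2 (median log2 0.21). In siTAF5 against siNT, CCT7 was 1.09-fold higher, TCP1, CCT3 and CCT8 were 1.09-fold, 1.12-fold and 1.08-fold lower, and 4 subunits were not called. Against siNT, 8 of 8 were higher in FL (27.8% of all genes) and 6 of 8 in ΔE8 (30.8% of all genes), with the 3 siNT libraries shared between those counts. CCT2 had 345, 361 and 365 CPM in siNT, 361, 366 and 373 in siTAF5, and with a transgene 482, 470.4 and 492 in FL and 454, 435 and 453 in ΔE8. CCT3 had 718, 732 and 731 CPM in siNT, 642, 640 and 658 in siTAF5, against 804, 778 and 811 in FL and 723, 702 and 700.1 in ΔE8. CCT2 thus lay above siNT in both transgene groups, whereas CCT3 lay above siNT in FL and overlapped it in ΔE8. In ΔE8 against FL, CCT7 was 1.08-fold higher, and CCT3, CCT6A, CCT2 and TCP1 were 1.13-fold, 1.09-fold, 1.08-fold and 1.06-fold lower (edgeR adjusted p from 4.78e-06 for CCT3 to 0.0107 for TCP1). The TCP1 call was lost without ΔE8 replicate 2 and with library totals alone. CCT8 in FL against siNT (adjusted p = 0.0204) lost its call in 12 of 19 other settings.

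**Figure D4:**
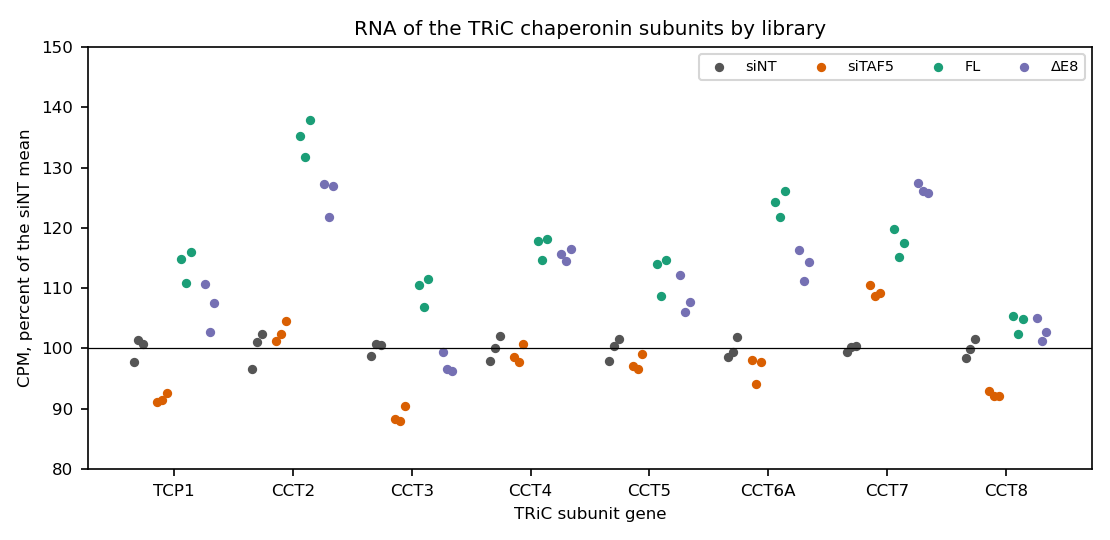
CPM of the 8 TRiC subunit genes in the 12 libraries as a percentage of the mean of the siNT libraries, with a point for each library and a vertical axis that runs from 80% to 150%. For each subunit the FL and ΔE8 points lie above the siTAF5 points, and CCT7 is the subunit whose ΔE8 points lie above its FL points.

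The comparisons siTAF5 against siNT and ΔE8 against FL share no library, so their calls can be set side by side. Of the 10 chaperones higher in siTAF5, 7 were also higher in ΔE8 (70% of the 10 and 77.8% of the 9): HSPA1A+HSPA1B, HSPA2, HSP90AA1, DNAJB4, CDC37, CCT7 and HSF1. Over all genes these shares were 53.2% and 76%. Of the 13 lower in siTAF5, 11 were also lower in ΔE8 (84.6% of the 13 and 61.1% of the 18): HSPD1, HSP90AB1, HSPA9, HSPB1, PTGES3, FKBP4, STIP1, DNAJB2, DNAJC7, TCP1 and CCT3. Over all genes these shares were 59.5% and 75.6%. No chaperone was called in opposite directions, against 1.71% of the genes higher in siTAF5 and 1.4% of those lower. Across the 43 chaperones the log2 changes of the comparisons had Pearson r = 0.868 and Spearman rho = 0.798, against 0.515 and 0.609 across the 19423 genes. These are descriptions across genes, which are not independent replicates, and all 4 groups share 1 normalization. The 19423 genes were not matched to the chaperones for level of expression, and the part of level in these differences was not tested. Called in siTAF5 against siNT but not between the transgenes were HSPA8, DNAJA1 and BAG1, which were higher, and HSPA13 and CCT8, which were lower. Called between the transgenes but not in siTAF5 against siNT were TRAP1 and DNAJA3, higher in ΔE8 than in FL, and HSPA14, HSPH1, HSPE1, DNAJB1, AHSA1, CCT2 and CCT6A, which were lower. Of these, HSPA14 and AHSA1 lost the call in 6 and 4 of 19 other settings, 5 and 3 of them with 1 FL or ΔE8 library left out.

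**Figure D5:**
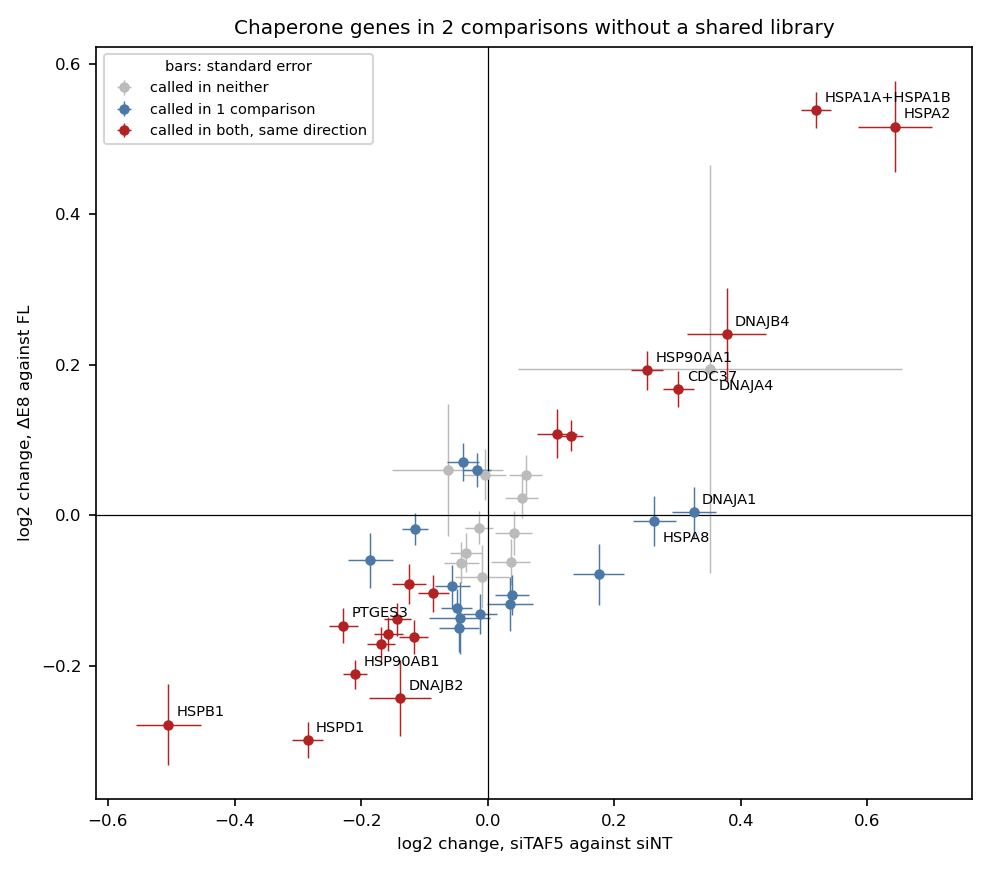
Log2 change of the 43 chaperones in siTAF5 against siNT (horizontal) and in ΔE8 against FL (vertical), with bars of 1 standard error and colour for the calls. HSPA1A+HSPA1B and HSPA2 lie at the upper right, HSPD1, HSPB1 and HSP90AB1 at the lower left, and HSPA8 and DNAJA1 on the right near 0 on the vertical axis.

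The 7 genes with a heat shock element in the searched window did not share a direction in siTAF5 against siNT or in ΔE8 against FL. In siTAF5 against siNT, HSP90AA1, HSPA8 and DNAJA1 were higher (log2 0.25, 0.26 and 0.33), HSP90AB1 and HSPD1 were lower (−0.21 and −0.28), and CHORDC1 and DNAJB6 were not called (−0.01 and 0.04). In FL against siTAF5 all 7 were called higher, from log2 0.12 in HSP90AA1 to 0.51 in CHORDC1. Of all genes, 24.4% were called higher there, and of the 43 chaperones, which include these 7, 72.1%. In ΔE8 against siTAF5, 5 of the 7 were higher and 0 lower (20% and 20.6% of all genes, 65.1% and 4.65% of the 43 chaperones). In ΔE8 against FL, HSP90AA1 was higher (0.19), HSP90AB1 and HSPD1 were lower (−0.21 and −0.30), and the other 4 were not called. The sum of HSPA1A and HSPA1B, with the TATAAA printed above, nearly all came from reads assigned to HSPA1B. It changed by log2 0.52 in siTAF5 against siNT, −0.54 in FL against siTAF5 and 0.54 in ΔE8 against FL. These genes had no exact match to the heat shock element and can still carry a degenerate one. The genes with and without a match are therefore not genes with and without the element.

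Levels between genes were compared per kilobase of merged exon. In siNT the order was led by HSPA1A+HSPA1B with 1010 CPM per kb, then HSP90AA1 with 649, HSP90AB1 with 645, PTGES3 with 408, HSPD1 with 404, CCT8 with 364 and HSPA8 with 352. HSP90AA1 and HSP90AB1 stood within their library spread of each other in siNT, while in ΔE8 HSP90AA1 had 958 and HSP90AB1 579.5 CPM per kb. The lowest were DNAJB5 with 1.90, HSPA2 with 1.28 and DNAJA4 with 0.0963 CPM per kb, so the HSPA2 changes concern a minor HSP70 transcript. HSP70 genes together supplied 0.423 ± 0.0042% of counts in siNT (SD, n = 3), 0.556 ± 0.0056% in siTAF5, 0.468 ± 0.019% in FL and 0.582 ± 0.010% in ΔE8. TRiC genes supplied 0.452 ± 0.0074%, 0.448 ± 0.0045%, 0.513 ± 0.0082% and 0.504 ± 0.0073% in the same order. Pseudogenes could take reads from some members. Searched as the member's name followed by P and a number, 47 pseudogenes of 16 members were in the table. Those of a member together held at most 1.29% of its counts. Pseudogenes named in another way were not counted. Another gene overlapped 24 members on the opposite strand.

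A wider list of 93 chaperone genes outside the set held 84 genes that were tested. In siTAF5 against siNT, 25 of them were higher and 22 lower (29.8% and 26.2%, near the 24.7% and 25% of all genes). In FL against siTAF5, 37 were higher and 16 lower (44% and 19%, against 24.4% each way), and in ΔE8 against siTAF5, 32 were higher and 6 lower (38.1% and 7.14%, against 20% and 20.6%), with a median log2 change of 0.05 in each. In ΔE8 against FL, 20 were higher and 27 lower (23.8% and 32.1%, against 17.3% and 19.7%). Against siNT, 40 were higher and 13 lower in FL (47.6% and 15.5%, against 27.8% and 26.8%), and 35 and 23 in ΔE8 (41.7% and 27.4%, against 30.8% and 31.4%). HSPB8, a small heat shock protein that works with BAG3, had the largest rise in FL against siTAF5, from levels of 3.33, 2.89 and 2.90 CPM in siNT and 2.81, 2.22 and 2.53 in siTAF5 to 8.22, 9.06 and 10.4 in FL and 7.38, 8.73 and 7.98 in ΔE8. All 6 transgene libraries lay above all siNT and siTAF5 libraries, by log2 1.88 ± 0.11 (SE) in FL and 1.68 ± 0.11 in ΔE8 against siTAF5 (edgeR adjusted p = 2.85e-11 and 1.11e-09), and ΔE8 against FL was not called (adjusted p = 0.103). A sublist of 13 held prefoldin, phosducin-like and chaperonin-like genes. Of these, 8 were higher and 2 lower in FL than in siTAF5 (61.5% and 15.4%, against 24.4% of all genes each way). In ΔE8 against FL, 1 was higher and 6 lower (7.69% and 46.2%, against 17.3% and 19.7%). The 2 lower in FL were the chaperonin-like CCT6B and BBS12, and the 1 higher in ΔE8 was CCT6B. Of 23 other cochaperones, 12 were higher and 5 lower in FL than in siTAF5 (52.2% and 21.7%), and 10 and 8 in ΔE8 against FL (43.5% and 34.8%). For 26 other J-proteins the counts were 11 and 7 (42.3% and 26.9%), then 6 and 5 (23.1% and 19.2%). For 8 mitochondrial cofactors they were 3 and 1, then 2 and 4. The remaining sublists held at most 6 genes each. The phosducin-like PDCL3 changed by log2 −0.43 ± 0.047 (SE) in siTAF5 against siNT, 0.53 ± 0.047 in FL against siTAF5 and −0.54 ± 0.048 in ΔE8 against FL (edgeR adjusted p = 2.43e-07, 1.4e-08 and 2.8e-08). The mitochondrial disaggregase CLPB followed the same order as HSPD1, with log2 −0.58, 0.58 and −0.46 (edgeR adjusted p = 2.17e-11, 2.67e-11 and 1.91e-09). TXNDC9, a phosducin-like protein that slows folding by TRiC, was higher in FL and in ΔE8 than in siTAF5, by log2 0.60 ± 0.06 and 0.43 ± 0.06 (edgeR adjusted p = 6.18e-08 and 8.92e-06). CDC37L1, a relative of CDC37, was lower in FL than in siTAF5 and higher in ΔE8 than in FL, by log2 −0.58 ± 0.054 and 0.55 ± 0.054 (edgeR adjusted p = 2.47e-08 and 1.48e-07).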

How the data were processed

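Polyadenylated RNA of 4 groups of 3 libraries was sequenced with a stranded kit, per the labels. The authors deposited 1 table of estimated counts per gene, which were not normalized: 45.3% of its entries are fractional. For the making of these estimated counts, the submitters' processing notes list STAR 2.7.0f, cutadapt 1.18, DESeq2 and Partek 10.0.23.0531 with build hg38, in no stated order. The sources used here do not give the quantifier, the annotation release or the strand setting.

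The design assumed whole counts, so the estimated counts were rounded and the planned test was kept. HSPA1A and HSPA1B were summed first. In edgeR 4.0.16 (R 4.3.3, limma 3.58.1), filterByExpr with a minimum count of 10 kept 19423 genes, and 1 quasi-likelihood model with trimmed-mean scaling held the 12 libraries, a mean per group and no block for replicates. Each of 6 comparisons had a two-sided test adjusted by Benjamini-Hochberg over those genes, with a threshold of 0.05. The common biological coefficient of variation was 2.82%. Without a spike-in, all changes are relative to the other genes. Library totals of 41.8 to 62.5 M reads limit the precision of genes under 1 CPM. The code was tested on simulated data. In siTAF5 against siNT, 76% of simulated 1.25-fold changes and 100% of 2-fold changes were recovered. Of the calls there, 6.38% were false. Settings tried besides were DESeq2 1.42.0, other scalings and filters, a replicate block, only the groups compared, separate HSPA1 genes and each library left out.

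The members, families and lists were chosen with earlier results of these data known. Values in every library are given for HSF1, HSF2, HSPA1A+HSPA1B and, in siTAF5 against siNT, FL against siTAF5 and ΔE8 against FL, the 4 higher and 4 lower called members with the largest log2 change at an average log2 CPM of at least 2. HSPA8, HSPE1, CCT2 and CCT3 were added to these after their values were seen. Other chaperones were named from the 3 largest each way in FL against siTAF5 and in ΔE8 against FL. Promoter sequences are from RefSeq (GRCh38.p14), and exon lengths from GENCODE release 29.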

Additional observations from a re-analysis of the deposited data

How the results depend on the processing

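Under the 20 settings tried, the counts of chaperones called higher or lower stayed within 1.5 times those reported in every comparison. Of the single-gene results, 138 lost and 54 gained a call and none changed direction while called. With each library left out in turn, the chaperones called higher and lower ranged from 9 to 10 and 12 to 15 in siTAF5 against siNT, 31 to 32 and 5 each time in FL against siTAF5, 27 to 30 and 2 to 3 in ΔE8 against siTAF5, 6 to 9 and 15 to 18 in ΔE8 against FL, 26 to 29 and 3 to 5 in FL against siNT, and 26 to 29 and 8 to 11 in ΔE8 against siNT. The 6 came from the fit without FL replicate 3. The 31 reported as higher in FL against siNT lie above the range of 26 to 29. Scaling by library totals alone turned the split of siTAF5 against siNT to 14 higher and 11 lower chaperones. That of all genes turned to 5662 higher and 4140 lower, from 4802 and 4849. In FL against siTAF5 all genes turned to 3748 higher and 5787 lower, from 4744 and 4732, with 31 chaperones higher and 6 lower. The cause was not tested. Calls lost in 8 or more of 19 settings were those of DNAJB2 (18), HSF1 (14), HSPD1 (13), CCT8 (12) and HSP90AB1 (8) in FL against siNT and of DNAJA3 (8) in ΔE8 against siNT.

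Correlations of same-numbered deviations ran from −0.0507 to 0.0512 over all tested genes, those of low count included. A weak pairing could be missed this way, and the labels do not say whether same-numbered libraries were handled together. With the replicate block the chaperones called higher and lower were 10 and 13 in siTAF5 against siNT, 31 and 5 in FL against siTAF5, 30 and 2 in ΔE8 against siTAF5, 9 and 18 in ΔE8 against FL, 30 and 4 in FL against siNT, and 29 and 9 in ΔE8 against siNT. The block ended the call of DNAJB2 in FL against siNT (edgeR adjusted p = 0.058) and added CDC37 and DNAJA4 in ΔE8 against siTAF5.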
